A study of Mus musculus with 3 samples.

Results

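CpG-poor promoter peaks are sites of open chromatin that lay at a transcription start whose surroundings hold few CpG dinucleotides. They were chosen from the peak list of biological replicate 2 as the peaks with a midpoint within 1000 bp of an annotated start of a protein-coding gene, where the 1000 bp centred on the nearest start had an observed over expected CpG ratio below 0.6. That ratio is the number of CpG dinucleotides divided by the number that the C and G content of the same window would give. The rule took 9702 of 106591 peaks. A further 20530 peaks lay at CpG-rich starts and 76047 lay over 1000 bp from any start (distal peaks). The sequence of the genome chose the members and the strength of the peaks did not.

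The study measured DNase I accessibility by sequencing (DNase-seq) in MEL cells, a mouse leukaemia line derived from erythroid precursors. All 3 libraries came from cells kept for 24 hours in zinc dichloride, at a dose labelled 125 in a molar unit whose prefix cannot be read, and no untreated library was analysed here. Of these libraries, 2 are technical replicates of biological replicate 1 and share 1 deposited peak list, and 1 library makes up biological replicate 2. MEL is an established leukaemic line, so its chromatin is that of a transformed cell. Promoter peaks marked 7 of 8 erythroid marker genes in replicate 2 and all 8 in replicate 1, against 4 and 5 of 15 markers of T cells, B cells, liver, muscle and neurons. Internal starts counted here, and Gata1 and Cd3e had a peak at such a start only. Over all protein-coding genes, counted at the 5′ end alone, 43.5% had a peak in replicate 2 and 56.3% in replicate 1.

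The replicate 1 list held 304049 peaks and the replicate 2 list 106591. The read depth behind them is unknown. Every peak was 150 bp wide and carried a score of the authors, a whole number that the labels do not define. It is used below only to rank peaks within a list. Each list stands for 1 biological replicate, so no standard deviation and no test between replicates could be given. Values are given for replicate 2 and then for replicate 1. Brackets hold 95% Wilson intervals, which cover counting error only, and peaks of 1 gene are not independent of each other.

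Mammalian promoters fall into CpG-rich promoters, which overlap unmethylated CpG islands and serve most housekeeping genes, and CpG-poor promoters, which serve many tissue-restricted genes. CpG-poor promoters usually lack a CpG island, are often methylated where the gene is silent, and depend on cell-type transcription factors and, at some genes, on a TATA box. In blood cells such factors include Gata1 and Klf1 in the red cell lineage and PU.1 (encoded by Spi1) and C/EBP proteins in the myeloid lineage.

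The peaks shown here are the 150 bp sequences of 7 members, each upstream of the 5′ end of its gene, and they were picked after their values were seen to show the kinds of motif described further on. They were read from the RefSeq copy of the mouse genome GRCm38 (mm10) and are written 5′ to 3′ on the strand of the gene. Capitals mark matches to the searched motifs on either strand, except the short metal response core, which matches a large share of all peaks and is left in lower case (of the 7, the Cela3b peak holds it). Pld4 (chr12:112760476-112760625, + strand) carried a GC box on the opposite strand. Cd68 (chr11:69666196-69666345, − strand) carried AP-1, GC box, CCAAT and C/EBP matches. Cd72 (chr4:43454656-43454805, − strand) and Cela3b (chr4:137430656-137430805, − strand) carried a PU.1 match, and Cela3b a C/EBP match as well. Gfap (chr11:102900936-102901085, − strand) carried a CTCF match and Irgm1 (chr11:48872416-48872565, − strand) an interferon response match. Cd244a (chr1:171558856-171559005, + strand) had no match to any of the searched motifs. None of these 7 stretches overlapped an annotated exon.
Pld4: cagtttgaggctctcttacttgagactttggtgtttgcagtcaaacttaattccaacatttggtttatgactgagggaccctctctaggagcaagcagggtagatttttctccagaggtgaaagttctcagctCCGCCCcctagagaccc
Cd68: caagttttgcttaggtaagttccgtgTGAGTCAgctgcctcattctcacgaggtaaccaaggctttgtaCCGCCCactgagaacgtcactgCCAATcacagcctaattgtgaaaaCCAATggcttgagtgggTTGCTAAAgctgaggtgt
Cd72: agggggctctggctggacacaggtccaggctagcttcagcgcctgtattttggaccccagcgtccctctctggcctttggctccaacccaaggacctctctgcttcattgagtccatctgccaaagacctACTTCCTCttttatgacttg
Cela3b: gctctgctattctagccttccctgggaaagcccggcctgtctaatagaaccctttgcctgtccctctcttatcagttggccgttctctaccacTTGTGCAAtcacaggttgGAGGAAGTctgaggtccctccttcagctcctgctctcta
Gfap: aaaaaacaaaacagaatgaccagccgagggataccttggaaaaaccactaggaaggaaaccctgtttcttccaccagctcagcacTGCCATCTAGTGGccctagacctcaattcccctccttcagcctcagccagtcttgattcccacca
Irgm1: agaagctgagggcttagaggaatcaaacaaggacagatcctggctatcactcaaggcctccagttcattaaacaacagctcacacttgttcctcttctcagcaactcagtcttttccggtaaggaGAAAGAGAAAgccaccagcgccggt
Cd244a: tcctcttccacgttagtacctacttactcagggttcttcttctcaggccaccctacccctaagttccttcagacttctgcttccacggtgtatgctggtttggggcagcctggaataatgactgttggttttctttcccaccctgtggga

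Scores of these 7 peaks spanned much of the range of the members. The Pld4 peak, at a phospholipase D family gene of myeloid and dendritic cells, scored 104 in replicate 2 and 147 in replicate 1. At Cd244a, which encodes a receptor of natural killer and myeloid cells, the scores were 92 and 150. The Irgm1 peak, at an interferon-induced GTPase gene, scored 62 and 131, and that at the macrophage gene Cd68 scored 57 and 149. Lower in replicate 2 were Gfap (an astrocyte filament, 33 and 95), Cd72 (a B cell receptor, 31 and 95) and Cela3b (a pancreatic elastase, 29 and 136).

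CpG-poor starts made up most of the annotation and a minority of the open promoters. Of 93459 distinct starts, 57316 (61.3%) were below the ratio of 0.6, while members made up 32.1% (31.6 to 32.6%) of the 30232 promoter peaks of replicate 2. In replicate 1 the same rule gave 19636 peaks, or 45.7% (45.2 to 46.1%) of 43007 promoter peaks. The members belonged to 4254 genes and 6049 starts. A single member was found at 1760 genes, 2 members at 1078, 3 at 660 and 4 or more at 756. Capg, which encodes an actin-capping protein of macrophages, had the largest number at 18 peaks over its several annotated starts, ahead of Platr25 with 14 and Plec with 13. The ratio of the members had a median of 0.36 (quartiles 0.231 to 0.511), against 0.791 at CpG-rich promoter peaks.

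Just inside the threshold lay peaks at Ctsa (ratio 0.599949, score 20), Zfp82 (0.59994, score 24) and Mthfd1 (0.599852, score 36). Just outside it lay Mcm2 (0.60015, score 39), Lipt1 (0.60024, score 51) and Ogdh (0.600343, score 58). These 6 are a description of where the rule falls.

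The share of genes with a peak at the 5′ end (called open from here on) rose with the CpG ratio over most steps. The largest rise between neighbouring steps lay just below 0.6, not at it. Of all 21938 protein-coding genes, 43.5% had a peak midpoint within 1000 bp of the 5′ end of the gene record in replicate 2 and 56.3% in replicate 1. Of the 11862 genes with a CpG-poor 5′ end, 2433 did in replicate 2, or 20.5% (19.8 to 21.2%), and 4253 in replicate 1, or 35.9% (35.0 to 36.7%). For CpG-rich 5′ ends the shares were 70.6% and 80.4%. Below a ratio of 0.1 the replicate 2 share was 4.90%, and between 0.2 and 0.3 it was 14.4%. Between 0.4 and 0.5 it was 32.1%, and between 0.5 and 0.6 it was 52.8%. In the next step up, from 0.6 to 0.7, it was 61.7%. It reached 75.9% from 0.8 to 0.9 and was 73.1% above that. Genes of the olfactory and vomeronasal receptor families made up part of the lowest steps, and without them 23.2% of CpG-poor 5′ ends had a peak in replicate 2 and 39.9% in replicate 1.

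**Figure D1:**
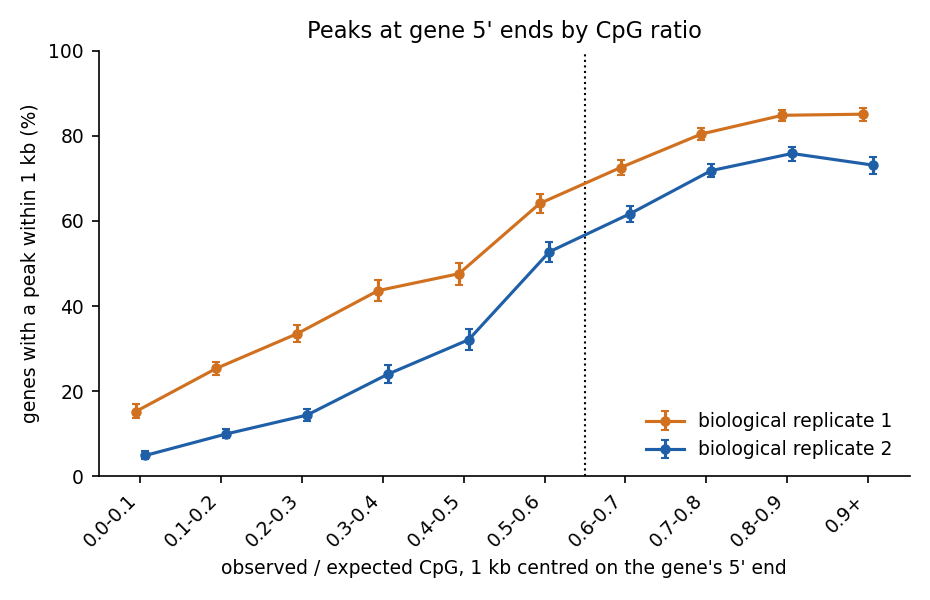
Share of protein-coding genes with a peak midpoint within 1 kb of the 5′ end (vertical axis, %) in steps of the observed over expected CpG ratio (horizontal axis), for both biological replicates, with 95% Wilson intervals as bars. The share in replicate 2 climbs from 4.90% in the lowest step to 52.8% just below the dotted line at 0.6, and replicate 1 lies above replicate 2 in every step.

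Where a CpG-poor 5′ end was open, its best peak scored lower the fewer CpGs it had. The median best score was 43 in replicate 2 and 115 in replicate 1 at CpG-poor 5′ ends, against 47 and 139 at CpG-rich ends. In steps of 0.1 of the ratio from the lowest up to 0.6, the replicate 2 medians were 26, 34, 41, 42, 44 and 46. The replicate 1 medians were 61, 87, 96, 111, 127 and 136, rising through every step. Over single peaks, members had a median score of 34 (quartiles 25 to 44), CpG-rich promoter peaks 39 and distal peaks 27, in a list whose median was 30. The top 10% of the list by score held 14.9% of the members, 19.5% of the CpG-rich promoter peaks and 7.36% of the distal peaks.

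The replicates differed more at CpG-poor than at CpG-rich 5′ ends. Of the CpG-poor genes, 2412 had a peak in both lists, 1841 in replicate 1 alone, 21 in replicate 2 alone and 7588 in neither. Those in replicate 2 alone included Trem2 (a microglia and macrophage receptor gene, score 44), Apoa1 (29) and Il10 (14). The Apoa1 peak was centred 949 bp upstream. The nearest replicate 1 peak to it, with a score of 95, was centred 220 bp away and fell outside the 1000 bp limit. Hence 56.7% (55.2 to 58.2%) of the CpG-poor genes open in replicate 1 were also open in replicate 2, against 87.7% of the CpG-rich genes. The lists differ in length, and their depths are unknown. With the replicate 1 list shortened to the same number of peaks by score, 2983 CpG-poor genes (25.1%) had a peak, and 76.6% of them had one in replicate 2, against 90% for CpG-rich genes.

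Peak by peak, the members lay between CpG-rich promoter peaks and distal peaks. Of the members, 66.3% (65.4 to 67.3%) overlapped a replicate 1 peak by at least 1 bp, compared with 62.0% (61.4 to 62.7%) of CpG-rich promoter peaks and 73.4% (73.1 to 73.7%) of distal peaks. Nearly all of the members that did not overlap a peak still lay in open chromatin of replicate 1: of these 3265, 3061 (93.8%) lay inside a replicate 1 hotspot, a broader stretch enriched in DNase I cuts. The midpoint of a replicate 1 peak was within 300 bp for 2485 of them (76.1%) and farther than 1000 bp for 13. Such near misses were common in the other classes too. Of the CpG-rich promoter peaks without overlap, 97.3% lay inside a replicate 1 hotspot, and of such distal peaks 82.1%. The shares with a replicate 1 midpoint within 300 bp were 72.7% and 79.6%. Among members that did overlap, the replicate 1 partner had a median score of 115 and ranked at percentile 85.8 of its list. Overlap depended little on the score: it was 63.0% for members that scored 19 or less and 71.1% for those that scored 43 or more, against 47.0% and 70.4% at CpG-rich promoter peaks.

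Members sat in narrower open stretches than CpG-rich promoter peaks. The median width of the replicate 2 hotspot around a member was 605 bp, against 912 bp at CpG-rich promoters and 324 bp at distal peaks. A member was the only peak of its hotspot in 49.2% of cases, against 36.9% and 70.5%. The hotspot's −log10 q value was at the authors' ceiling of 100 for 33.1% of members, 43.8% of CpG-rich promoter peaks and 21.4% of distal peaks. The peaks themselves had a median GC content of 50.7%, against 55.3% and 46%, and 12.8% of them contained no CpG at all, against 2.57% and 26.5%. In each of these measures the members lay between the other classes. For peaks without a CpG, the gap to CpG-rich promoter peaks follows in part from the rule, which sorts starts by CpG.

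Members gathered immediately upstream of the start, as CpG-rich promoter peaks did. The median midpoint was at −9 bp in the direction of transcription (quartiles −266 to 288 bp), and 23.9% lay within 100 bp of the start. The 100 bp just upstream held 14.2% of members and 15.6% of CpG-rich promoter peaks. Of the 2318 members within 100 bp of the start, 81.9% (80.3 to 83.4%) overlapped a replicate 1 peak and the median score was 38. Beyond that and up to 500 bp the overlap was 57.9% (score 34), and farther out, up to 1000 bp, it was 67.2% (score 30).

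**Figure D2:**
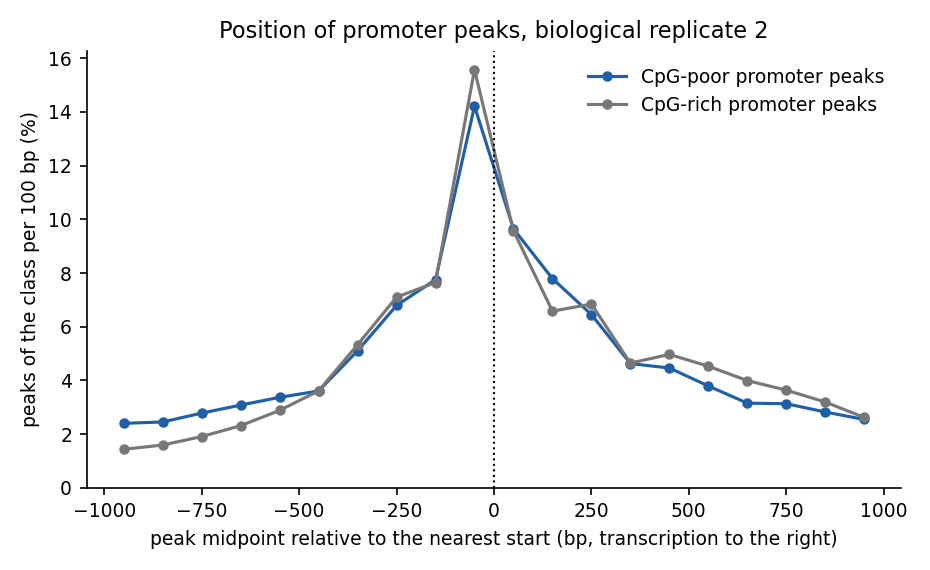
Share of the peaks of a class per 100 bp (vertical axis, %) by the distance of the peak midpoint from the nearest start (horizontal axis, bp, transcription to the right) in biological replicate 2. The highest point of both classes is the 100 bp upstream of the start, with 14.2% of CpG-poor and 15.6% of CpG-rich promoter peaks.

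Most members lay at starts inside a gene. For 3103 (32.0%) the nearest start was the 5′ end of the gene record, and for 6599 (68.0%) it was an internal start, of which 3260 belonged to non-coding transcripts only. At CpG-rich promoter peaks the 5′ end was nearest in 48.7%. Members at 5′ ends had a median score of 36 and those at internal starts 33, and 67.5% and 65.8% overlapped a replicate 1 peak. A CpG-rich start also lay within 1000 bp of 1311 members (13.5%), of which 58.6% overlapped a replicate 1 peak. The strictest class, with the 5′ end nearest and no CpG-rich start within reach, kept 2711 members (27.9%) at a median score of 36, of which 68.3% overlapped a replicate 1 peak.

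The highest-scoring member in replicate 2 was at Spi1, which encodes the ETS factor PU.1 and was first known as a site where the Friend spleen focus-forming virus integrates in mouse erythroleukaemia. This peak (chr2:91096816-91096965, GC content 66.7%) was centred 111 bp downstream of an internal coding start and scored 140. Its replicate 1 partner scored 141, which was percentile 97.6 of that list and not the highest among the 12. Next came Cep170b (105, a centrosome protein gene), Pld4 and Prkab2 (both 104; Prkab2 encodes a subunit of the energy sensor AMPK), Tmed1 (98, a vesicle transport protein gene), Polr3gl (97, an RNA polymerase III subunit gene) and Gm16253 (96). The other 5 of the top 12 were Cd244a and Golph3l (both 92), Btk and Mllt11 (both 90) and Acsl5 (89). Btk encodes a kinase of B cell and myeloid signalling, and Acsl5 an enzyme that activates fatty acids. In replicate 1, 10 of the 12 overlapped a peak, with scores of 133 to 150, and Cep170b (chr12:112743516-112743665) and Acsl5 did not. The nearest replicate 1 peaks to these were centred 160 and 300 bp away, with scores of 144 and 147. The lowest members were at Nlrp1b (score 2), Myo3a and Ppfibp2 (both 4).

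High members clustered in a few stretches of the genome in which other peaks scored high too. For each of the 12, the median score of the other replicate 2 peaks within 500000 bp was taken. It ranged from 30 at Spi1 to 57 at Polr3gl and Gm16253, with a median of 46 over the 12. It exceeded the list median of 30 at 11 of the 12. Many lower named peaks had surroundings above 30 too, such as Zfp82 (score 24, surroundings 37) and Evpl (13 and 34). Others did not, such as Prss2 (18 and 20). Of the 165 members in the top 1% of the whole list (score 69 and above), 49 (29.7%) were on chromosome 3, which held 5.56% of all members. The stretch chr3:96000001-97000000 held 14 of them among its 42 members, and the median of all replicate 2 peaks there was 58. In replicate 1 that stretch had a median of 98, in a list whose median was 62. The part of the surroundings in these scores was not tested. The Spi1 peak was the exception: its surroundings scored 30 in replicate 2 and 66 in replicate 1.

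**Figure D3:**
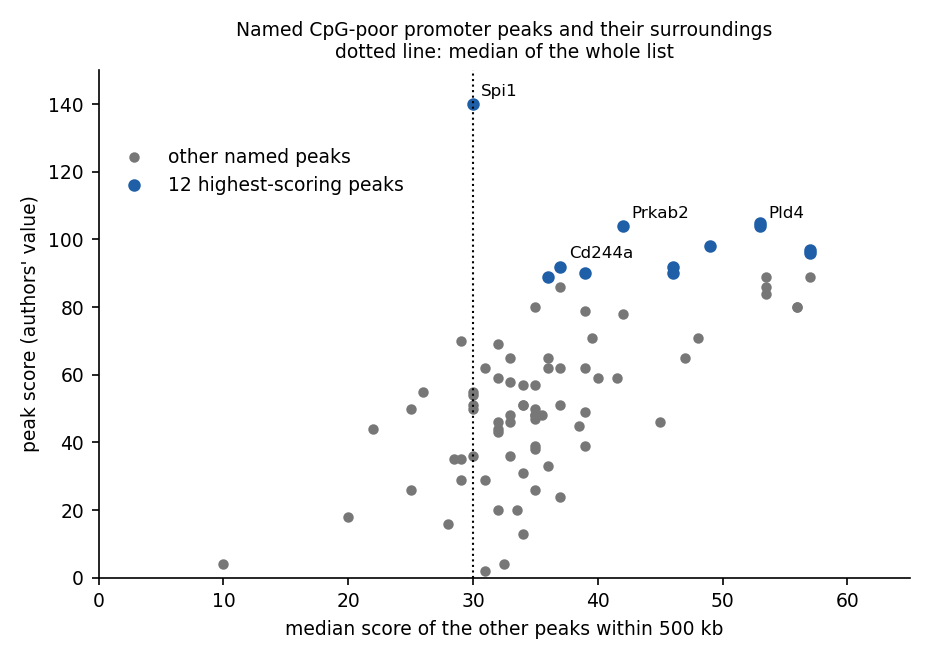
Score of each named CpG-poor promoter peak (vertical axis, the authors' score) against the median score of the other replicate 2 peaks within 500 kb (horizontal axis), with the 12 highest members in blue and the dotted line at the list median of 30. Spi1 stands at 140 with surroundings at 30, and the other 11 blue points lie at surroundings of 36 to 57.

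Of 13 erythroid regulator and signalling genes with a CpG-poor 5′ end, 9 had a peak there in replicate 2 and 11 in replicate 1 (background 20.5% and 35.9%). Cbfa2t3, a corepressor that works with Tal1, scored 71 and 147. The erythropoietin receptor gene Epor scored 59 and 145, Lyl1 (a relative of Tal1) 55 and 143, and Cish (an inhibitor of cytokine signalling) 48 and 129. Klf1, the activator of adult globin genes, scored 39 and 115, and Gfi1b, an erythroid repressor, 32 and 133. Nfe2 (146) and Stat5a (59) had a peak in replicate 1 alone, and Hemgn had none. Gata1 had no peak at the 5′ end of its gene record in either list. Its member peak (chrX:7964036-7964185, score 57) lay at an internal start with a ratio of 0.1331, and the nearest replicate 1 peak was centred 180 bp away with a score of 143.

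Red cell membrane and surface genes followed with 9 of 19 in replicate 2 and 15 of 19 in replicate 1. Icam4, an adhesion protein of red cells, scored 71 and 136. The Rh-associated glycoprotein gene Rhag scored 41 and 129. The anion exchanger gene Slc4a1 had a peak of score 48 in replicate 1 alone. Of 16 genes of haem synthesis, globins and gas exchange, 4 (25%) had a peak in replicate 2, near the 20.5% of all CpG-poor 5′ ends, among them the haem synthesis enzyme genes Ppox (62), Uros (55) and Fech (33). Replicate 1 had 9 of 16 (56.25%, background 35.9%), among them the adult beta globin gene Hbb-bt (102) and the theta globin gene Hbq1a (126). Hbb-bs, the other adult beta globin gene, scored 29 there. Alas2, Car3, Hba-a1, Hba-a2, Hba-x, Hbb-bh1 and Hbb-y had no peak at the 5′ end in either list.

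Of 31 genes that most white cells share, 19 had a peak at a CpG-poor 5′ end in replicate 2 and 29 in replicate 1, with median best scores of 54 and 133. In share of genes this list came after the erythroid regulators in replicate 2 and before them in replicate 1. Btk scored 90 and 141, and Hcls1, an adaptor to the actin skeleton, 70 and 141. Cd37 scored 63 and 141, the actin regulator gene Was 62 and 141, and the GTPase gene Rac2 62 and 146. Ptprc, which encodes the pan-leukocyte phosphatase CD45, scored 60 and 138. Cytip and Selplg had no peak in either list, and Lcp2 (135), Coro1a (136) and Cd52 (140) were among the 10 found in replicate 1 alone.

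Monocyte and macrophage genes had 11 of 24 in replicate 2 and 19 of 24 in replicate 1. The Fc receptor gene Fcgr1 scored 80 and 145, Cd68 57 and 149, and Fcer1g and Tyrobp, which encode signalling adaptors, 54 and 52 in replicate 2. Spi1 had a peak at its 5′ end as well, with scores of 45 and 143. Aif1, Csf1r, Cybb and Msr1 had no peak at the 5′ end in either list. Granulocyte genes had 4 of 23 in replicate 2, close to the background of 20.5%, and 13 of 23 (56.5%) in replicate 1, above its background of 35.9%. Those in replicate 2 were S100a8 (46), Anxa1 (44), Cebpe (42) and Cxcr2 (36), while the myeloperoxidase gene Mpo (108) and Itgam (137) had a peak in replicate 1 alone. Of 16 mast cell, basophil and eosinophil genes 4 had a peak (9 in replicate 1), led by Hdc, the histamine-forming enzyme, at 59 and 129. Of 20 megakaryocyte and platelet genes 5 did (13 in replicate 1), led by Rgs18 (62 and 146) and the integrin gene Itga2b (58 and 144). Both lists stood at 25% in replicate 2, near the background. In replicate 1 they stood at 56.25% and 65%, above the background of 35.9%.

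T cell and natural killer genes had the lowest share of the blood lists, with 2 of 23 in replicate 2 (background 20.5%) and 9 of 23 in replicate 1 (background 35.9%), the former being Cd7 (39 and 124) and Cd5 (15 and 133). B cell genes had 5 of 18 (27.8%) in replicate 2, near its background, and 10 of 18 (55.6%) in replicate 1, above its background. Among them, Blnk scored 38 and 134 and the B cell factor Ebf1 25 and 127. Cytokine, chemokine and receptor genes had 10 of 28 and 20 of 28. The receptor chain genes Csf2rb (50 and 143) and Csf2rb2 (44 and 135) were among them, and so were the ligand genes Il6 (48 and 142) and Tnf (32 and 131).

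Interferon response genes had 11 of 20 in replicate 2 and 15 of 20 in replicate 1. Oasl1, a relative of the antiviral oligoadenylate synthetases, scored 65 and 141. Irgm1 scored 62 and 140 at its best peak, Ifit2 55 and 142, and Bst2, which encodes the tether that holds virions at the cell surface, 51 and 140. Isg15 had a peak in replicate 1 alone (135). Metal and oxidative stress genes had 4 of 11 and 6 of 11: the quinone reductase gene Nqo1 (51 and 148), the cystine transporter gene Slc7a11 (51 and 111), the ferritin light chain gene Ftl1 (48 and 146) and Mtf1 (41 and 139), which encodes the zinc sensor. The haem oxygenase gene Hmox1 had a peak in replicate 1 alone (141), and the metallothionein genes Mt3 and Mt4 had none. All cells were treated, so nothing here compares zinc with its absence.

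**Figure D4:**
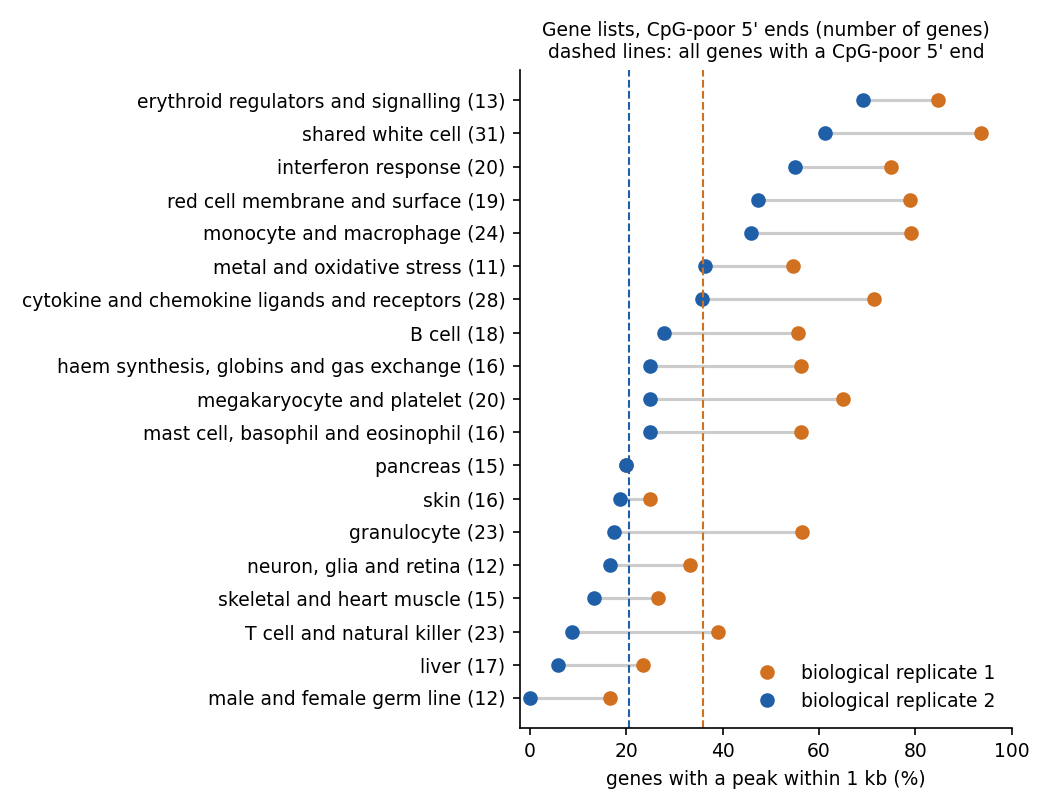
Share of the genes of each list with a CpG-poor 5′ end that had a peak within 1 kb of it (horizontal axis, %), with the number of such genes in brackets and dashed lines for all genes with a CpG-poor 5′ end (20.5% in replicate 2, 35.9% in replicate 1). The erythroid regulator, white cell and interferon lists lie at the top, and the pancreas list has the same share (20%) in both replicates, so that its points coincide.

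Over the 11 blood lists together, 82 of 231 CpG-poor genes (35.5%, 29.6 to 41.9%) had a peak in replicate 2 and 157 (68.0%) in replicate 1. Over the 6 lists of liver, muscle, skin, pancreas, nervous system and germ line, 11 of 87 (12.6%, 7.21 to 21.2%) and 21 (24.1%) did. The median best scores were 45 and 121 in the blood lists and 33 and 80 in the others. Tnni2, which encodes a troponin of fast muscle, scored 55 and 143, and the cone opsin gene Opn1sw 46 and 125, both above the blood-list medians. The epidermal caspase gene Casp14 scored 39 and 116, below those medians. In the liver list Apoa1 alone had a peak in replicate 2 (score 29), and none of the 12 germ line genes did.

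Families of clustered CpG-poor genes spanned a wide range. Of 1135 olfactory receptor genes 21 (1.85%) had a peak in replicate 2 and 82 in replicate 1, of 330 vomeronasal receptor genes 3 and 22, and of 42 beta-defensin genes 0 and 6. Genes whose symbols begin with Krt, which are keratins, keratin-associated genes and a few others, had 3 of 113 in replicate 2 and 11 in replicate 1. Of the 3, Krt24 alone is a keratin. Cytochrome P450 genes had 6 of 91, and 21 in replicate 1. Immune families lay on both sides of the 20.5% of all CpG-poor 5′ ends in replicate 2. Above it were 5 of 9 Schlafen genes, 6 of 15 Fc receptor genes, 4 of 10 guanylate-binding protein genes and 6 of 19 Ms4a genes. Near or below it were 10 of 47 chemokine and receptor genes, 15 of 72 interleukin and receptor genes, 10 of 53 C-type lectin genes and 1 of 12 Ly6 genes. In replicate 1, with a background of 35.9%, these stood at 51.1%, 51.4%, 35.8% and 41.7%. The immune families named before them stood at 52.6% to 100% there. The highest replicate 2 share among the larger families was that of the zinc finger genes named Zfp, at 87 of 192 (45.3%), with 104 in replicate 1. Solute carrier genes had 60 of 203 (29.6%), and 98 in replicate 1. Members of a family can share sequence, and the labels do not say what was done with reads of more than 1 possible origin.

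The sequences of the members were searched for 20 motifs on both strands, and a match is a description of letters, not evidence of binding. At least 1 GATA motif (AGATAA) was in 7.30% of members, 4.61% of CpG-rich promoter peaks and 10.7% of distal peaks. The PU.1 motif (GAGGAAGT), as in the Cd72 and Cela3b peaks, was in 3.78%, 1.36% and 5.81%. RUNX (TGTGGTT) was in 3.49%, 2.04% and 4.87%, AP-1 (TGANTCA) in 4.41%, 2.62% and 5.69%, and CTCF (CCA, 2 free bases, AG, 2 free bases, GGCA) in 1.84%, 0.404% and 3.69%. For these lineage and insulator motifs the members lay between CpG-rich promoters and distal peaks. The same order in reverse held for motifs of housekeeping promoters: the GC box (GGGCGG) was in 11.5%, 24.3% and 3.09%, the ETS motif (CCGGAAGT) in 1.01%, 2.38% and 0.243%, and NRF1 (GCGC on either side of AT) in 0.144%, 0.507% and 0.0316%. The letters of the GC box, ETS and NRF1 motifs contain CG. Fewer matches to them in members than in CpG-rich promoter peaks therefore follow in part from the rule. The metal response core (TGCNCNC), which is short, had the same order at 28.5%, 32.0% and 23.7%.

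A few motifs broke that order. The CACCC motif (CCACACCC), bound by Klf factors, was in 1.73% of members, 1.38% of CpG-rich promoter peaks and 1.31% of distal peaks. CCAAT was in 18.2%, 19.7% and 18.2%, and the interferon response motif (GAAA, 2 free bases, GAAA), as in the Irgm1 peak, in 2.46%, 1.64% and 2.41%. The E-box with GATA (CTG, 8 free bases, AGATAA), which Tal1 and Gata1 bind together, was in 0.381% of members (37 peaks), 0.0731% of CpG-rich promoter peaks and 0.376% of distal peaks. Some of these motifs overlap: the E-box with GATA contains the GATA motif, the NF-E2 motif (TGC followed by the AP-1 letters, in 0.32% of members) contains AP-1, and PU.1 and ETS share the letters GGAAGT.

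**Figure D5:**
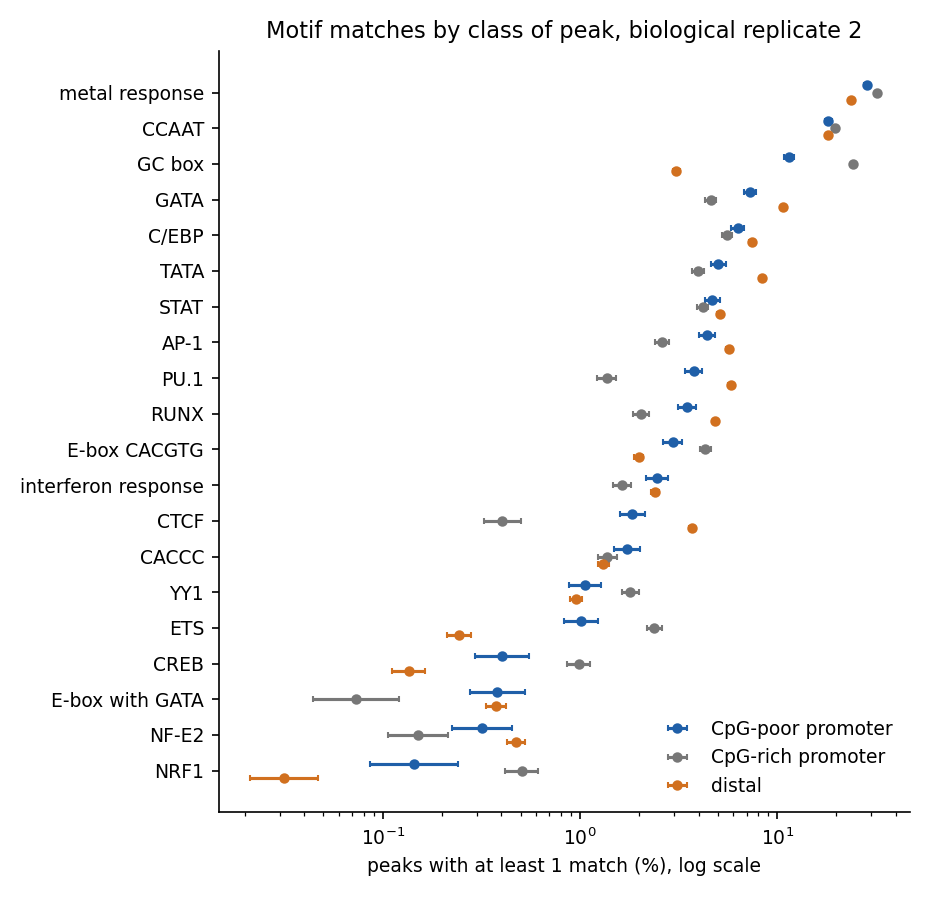
Share of peaks with at least 1 match to each of 20 motifs (horizontal axis, %, log scale) for CpG-poor promoter peaks, CpG-rich promoter peaks and distal peaks of biological replicate 2, with 95% Wilson intervals as bars. For PU.1 the blue point (3.78%) lies between grey (1.36%) and orange (5.81%), and for the GC box (11.5%) between orange (3.09%) and grey (24.3%).

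The makeup of motifs moved with the CpG ratio among the members themselves. Below a ratio of 0.2 the PU.1 motif was in 6.84% of members, from 0.2 to 0.4 in 4.39%, and from 0.4 to 0.6 in 1.95%. GATA went from 10.2% to 8.41% and 5.11%, and CTCF from 2.58% to 2.57% and 0.915%. The GC box went the other way, from 3.23% to 5.84% and 19.8%. The CG within its letters ties the last motif, like ETS and NRF1, to the CpG content that the rule uses.

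Members with some motifs were found again in replicate 1 more often. Of the 367 members with a PU.1 motif, 87.5% (83.7 to 90.5%) overlapped a replicate 1 peak, against 65.5% of those without. With a CTCF motif it was 95.5% (91.4 to 97.7%) of 179, against 65.8% without, at a lower median score (27 against 34). With a GC box it was 81.6% of 1114, against 64.4%, at a higher median score (38 against 33). For GATA the share was 70.1% of 708 members, and for the E-box with GATA 32 of 37 peaks. These are shares over peaks of 1 list and not over replicates.

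The 200 bp upstream of CpG-poor 5′ ends also differed between genes with and without a peak in replicate 2. The PU.1 motif was in 3.90% of those with a peak, in 2.13% of those without and in 2.06% of all genes. Below a ratio of 0.2 the gap was wider, at 9.58% (7.09 to 12.8%) of 407 genes with a peak and 2.14% (1.76 to 2.60%) of 4585 without, and the median GC content of these stretches was 49.5% and 44.0%. From 0.4 to 0.6 the shares were 1.87% and 1.49%. Other lineage motifs did not all follow PU.1. With and without a peak, GATA was in 7.64% and 10.7%, C/EBP in 7.89% and 9.64%, and AP-1 in 5.59% and 7.34%. Of genes without a peak 4585 of 9429 lay below a ratio of 0.2, and 407 of 2433 with one. By step (below 0.2, 0.2 to 0.4, 0.4 to 0.6) GATA was in 12.5% and 13.2%, 8.83% and 9.45%, and 5.54% and 6.19%. C/EBP was in 11.3% and 10.7%, 6.95% and 9.42%, and 7.34% and 7.22%. AP-1 was in 8.60% and 9.05%, 7.09% and 6.39%, and 3.90% and 4.53%. The GATA gap was thus smaller within steps, and those of C/EBP and AP-1 changed direction between them. Over all these ratios RUNX was level at 4.77% and 4.76%. The E-box with GATA was rare, and its intervals overlapped. It was in 0.452% (11 of 2433, 0.253 to 0.808%) with a peak and 0.223% (21 of 9429, 0.146 to 0.340%) without. CTCF (1.15% and 0.551%) was more frequent with a peak. The GC box was in 31.9% with a peak and 12.8% without (37.5% of all genes), and below a ratio of 0.2 in 7.86% and 3.64%. The part of the GC content in these differences was not tested.

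TATA boxes were rarer at CpG-poor 5′ ends with a peak than at those without. TATAAA on the sense strand from 40 to 20 bp upstream was found at 34 of 2433 CpG-poor 5′ ends with a peak (1.40%, 1.00 to 1.95%) and at 391 of 9429 without (4.15%, 3.76 to 4.57%), against 2.27% of all genes. Over the whole 200 bp and both strands the shares were 6.95% and 15.3%, and the order was the same within each step of the ratio: 10.1% and 20% below 0.2, 8.39% and 12.4% from 0.2 to 0.4, and 5.24% and 8.19% from 0.4 to 0.6. The median GC content of these stretches was 53.5% with a peak and 47.5% without. By step it was 49.5% and 44%, 51.5% and 49.5%, and 55.5% in both. The part of the GC content in the TATAAA shares was not tested. In the peaks, TATAAA was in 5.04% of members, 3.97% of CpG-rich promoter peaks and 8.40% of distal peaks.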

How the data were processed

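DNase-seq was made from 3 libraries of zinc-treated MEL cells. Per the labels, alignment was to mm10. Which aligner, peak caller and filters were used was not given in the sources used here. The authors deposited 150 bp peaks with a whole-number score, which never exceeds the peak width and whose definition is not stated, and hotspots with a −log10 q value per hotspot, with a ceiling of 100. Replicate 1 scores crowd near their maximum of 150. Per the deposited text records, the whole-series lists derive from an alignment named by both libraries of biological replicate 1, and were read as that replicate. The other pair comes from biological replicate 2. Read depth is unknown, so single peaks carry no counting interval and no detection limit.

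From these lists, peaks on chromosomes 1 to 19, X and Y were used, leaving out 30 mitochondrial and 282 other peaks of replicate 2. All 42 checks of a list against a chromosome length of GRCm38 passed. Starts were all transcript starts of protein-coding genes in GENCODE mouse release 21. Gene counts use the 5′ end of the gene record, and a gene's best score is that of its highest peak within 1000 bp. Motifs were matched as exact letters. The counts, medians, shares and Wilson intervals were computed with Python 3.11.15, pandas 2.3.3 and scipy 1.17.1 and tested on simulated data. With 1 list per biological replicate, no test was made.

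The members, the 19 gene lists, 22 families and 20 motifs were chosen with earlier results of these data known. Of the 418 listed genes 416 were matched. Clec7a and Mx2 were not. Genes named by rule were the 3 highest members of each list, the 12 highest and 3 lowest members, the 3 nearest each side of the threshold, the 3 highest absent from replicate 1 and the highest with each motif. Further genes were named after their values were seen. Alternatives were the CpG threshold and window, the distance, the kind of start, a score filter and the overlap needed, and some were added after the data were examined. Some listed genes are not reported here by name.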

Additional observations from a re-analysis of the deposited data

How the results depend on the processing

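The number of CpG-poor promoter peaks (9702) became 5278 with gene 5′ ends as the only starts, 6122 in the top 50% of the list by score, and 2711 at 5′ ends with no CpG-rich start within 1000 bp, an alternative chosen after seeing the data. It was 7054 at a threshold of 0.5, 14203 at 0.7 and 14437 with a 2000 bp CpG window. With distances of 500 and 2000 bp there were 6839 and 13051 CpG-poor promoter peaks, and 7500 with starts of coding transcripts. Their share of promoter peaks (32.1%) became 23.3% at a threshold of 0.5, 47.0% at 0.7, 47.8% with a 2000 bp CpG window, 34.6% with a distance of 2000 bp, 27.0% with starts of coding transcripts, 23.1% with 5′ ends and 28.0% in the top 50%. The share of CpG-poor gene starts with a peak (20.5%) became, in the order threshold 0.5, threshold 0.7, 2000 bp window, 500 bp distance and 2000 bp distance, 15.2%, 27.8%, 29.2%, 17.5% and 24.6%. It was 16.5% in the top 50% of peaks, 21.9% for genes with all starts CpG-poor and, chosen after seeing the data, 23.2% without olfactory and vomeronasal receptors and 25.1% with the replicate 1 list shortened to the same number of peaks.

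The overlap with replicate 1 (66.3%) became 67.5% at a threshold of 0.5, 64.9% at 0.7, 67.8% with a distance of 2000 bp, 64.7% with coding starts, 64.6% with 5′ ends, 67.4% in the top 50%, 68.3% at 5′ ends with no CpG-rich start nearby and 46.9% where at least 50% of the peak had to overlap. The median score (34) became 33 at a threshold of 0.5, 36 at 0.7, 36 with the 2000 bp window, 36 and 33 with distances of 500 and 2000 bp, 37 with 5′ ends, 41 in the top 50% and 36 at 5′ ends with no CpG-rich start nearby. The cause of these shifts was not tested. The alternatives change which peaks or genes are counted, how much overlap is needed or, for the shortened replicate 1 list, which list is used. No paired analysis was possible because each list is a single biological replicate and no test was made, and leaving out a replicate leaves the other list, whose values stand beside each result. The unknown read depth limits every statement on a peak missing from a list.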
